A study of Mus musculus with 12 samples.

Results

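The genes described here are 58 components and regulators of DNA replication and S-phase entry, chosen by gene symbol from the deposited count table of cultured adult mouse neural stem cells (NSCs). All 58 symbols were present among the 17365 genes of the table, and all 58 were among the 13312 genes that passed the filter on low counts. RNA was sequenced from 12 libraries of wild-type NSC lines that had been derived from the subventricular zone (SVZ) of young adult mice of 6 to 8 weeks, ANS4 from the MF1 strain and BL6 from C57BL/6, and kept to an early passage. Each line was cultured in EGF/FGF, in which the cells proliferate, in BMP, which induces quiescence (called d-qNSCs in the labels), or in BMP/FGF, which also induces quiescence (called p-qNSCs). Each growth factor (EGF, FGF2 and BMP4) was used at 10 ng/ml, and the BMP treatments lasted 3 days. Each line contributed 2 replicate libraries per condition, giving 4 libraries per condition, and since each strain is represented by a single line, strain and line cannot be told apart.

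Before a cell can copy its genome, the origin recognition complex (ORC) marks the start sites, and CDC6 and CDT1 use it to load the MCM2-7 helicase, a step known as licensing that geminin (Gmnn) restrains. At S-phase entry, cyclin E kinase and the CDC7-DBF4 kinase turn the loaded helicase on by adding CDC45 and GINS, and the polymerases, the PCNA clamp and its loader then build the replication fork. Many of these genes are transcribed under E2F factors, and cells that withdraw from the cycle are known to lose the licensing machinery, which is why MCM proteins serve as markers of cycling cells in the adult SVZ.

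Total counts ranged from 18069052 to 19451818 per library. Values are CPM (counts relative to a fixed library size, scaled by the trimmed mean of M values, TMM), and 1 count corresponded to 0.0517 to 0.0559 CPM. The lowest count of any of the 58 genes in any library was 11, for Orc1. NSC markers fixed as a list of 10 genes summed to 6978 to 8677 CPM across all libraries, but its members moved both ways. In BMP 4 of the 10 were lower (38.8% of all tested genes were) and 6 higher (40.8%). Nes went from 498.5 to 625 CPM in EGF/FGF to 116 to 141 CPM, and Fabp7 from 2185 to 2596 CPM to 277 to 665 CPM. Vim, at 4197 to 4998 CPM, made up most of the sum in BMP. In EGF/FGF it was at 2514 to 2825 CPM of a sum of 7202 to 7770 CPM. Astrocyte markers summed to 1871 to 2328 CPM in EGF/FGF, 6803 to 8628 CPM in BMP and 10054 to 10272 CPM in BMP/FGF. Of these 9 genes, 8 were higher in BMP (40.8% of all tested genes) and in BMP/FGF (40.9%). The other, Id3, was lower (38.8% and 38% of all tested genes). It was at 39.7 to 54.3 CPM in EGF/FGF and 22.55 to 38.0 CPM in BMP. Neuron markers rose from 556 to 590 CPM to 1128 to 1745 CPM and 869 to 934 CPM. Map2 made up most of the neuron sum in EGF/FGF (538.1 to 574.6 CPM). All 5 tested neuron markers were higher in BMP (40.8% of all tested genes) and in BMP/FGF (40.9%). Dcx was at 0.62 to 2.17 CPM in EGF/FGF and 47.6 to 54.8 CPM in BMP/FGF. In BMP, Dcx was at 173.5 and 169.9 CPM in ANS4 and 396.5 and 378.6 CPM in BL6. Tubb3 rose from 10.51 to 13.07 CPM in EGF/FGF to 121.3 to 216.9 CPM in BMP. Syt1 rose from no more than 0.155 CPM in EGF/FGF to 2.55 to 4.10 CPM in BMP. Snap25 rose from 1.93 to 2.58 CPM to 4.14 to 11.3 CPM. The mature neuron marker Rbfox3, not among the 5 tested, stayed at no more than 0.209 CPM. Oligodendrocyte markers were at 203 to 251 CPM in EGF/FGF, 679.7 to 758 CPM in BMP and 744 to 767 CPM in BMP/FGF, microglia markers (6 of 12 in the table) at 5.81 to 18.9 CPM and endothelial and fibroblast markers (5 of 8) at 3.65 to 7.12 CPM. The part of these shifts in the results below was not tested. Mki67, a proliferation marker outside the group, was at 533 to 804 CPM in EGF/FGF, 54.6 to 129.9 CPM in BMP and 43.0 to 50.8 CPM in BMP/FGF. In bulk RNA, fewer cells in S phase and less of these transcripts in each cell cannot be told apart.

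The promoters of 4 of the genes are shown because they span the responses described below. Orc1 fell furthest of all, Orc3 rose and its promoter also holds an E2F word, Mcm6 belongs to the helicase, and Rfc3 differed between the lines. Sequences are from RefSeq (GRCm38.p6), 5′ to 3′ on the strand of the gene, from 150 bases before to 30 bases after the annotated start, with matches to E2F words in capitals; they lie at chr4:108579304-108579483 (plus strand), chr4:34614913-34615092 (minus strand), chr1:128359676-128359855 (minus strand) and chr5:151651179-151651358 (minus strand).
Orc1: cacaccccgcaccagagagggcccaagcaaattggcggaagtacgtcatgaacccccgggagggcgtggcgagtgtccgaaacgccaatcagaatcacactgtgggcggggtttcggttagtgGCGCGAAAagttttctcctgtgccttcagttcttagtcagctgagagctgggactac
Orc3: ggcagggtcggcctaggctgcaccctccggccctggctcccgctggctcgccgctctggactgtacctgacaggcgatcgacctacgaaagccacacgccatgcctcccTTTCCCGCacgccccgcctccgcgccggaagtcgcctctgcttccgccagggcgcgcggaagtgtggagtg
Mcm6: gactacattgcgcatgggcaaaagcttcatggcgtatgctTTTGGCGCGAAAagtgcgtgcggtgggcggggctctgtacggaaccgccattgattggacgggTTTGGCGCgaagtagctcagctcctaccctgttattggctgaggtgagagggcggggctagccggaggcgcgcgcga
Rfc3: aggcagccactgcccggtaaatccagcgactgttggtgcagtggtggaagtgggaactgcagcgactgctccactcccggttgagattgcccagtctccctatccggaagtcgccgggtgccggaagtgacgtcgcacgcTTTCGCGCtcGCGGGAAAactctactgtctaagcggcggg
The words searched were TTTCCCGC, TTTGGCGC, TTTCGCGC and TTTGCCGC on both strands, and words can overlap, as the first pair in Mcm6 does. In windows from 250 bases before to 50 bases after the start, at least 1 word occurred in 20 of the 48 members present in the RefSeq table, or 41.7%, against 2.61% of all 27025 genes in that table and 4.12% of the 13631 that are also in the count table. The shorter CHR element TTTGAA was found in 9 of the 48, or 18.75%, against 20.2% and 15.2%. A match describes letters in a window and does not show that a factor binds there.

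The members fell together in both quiescence conditions, while a few subunits stood apart from the others of their own complex. In BMP, 57 of the 58 were lower than in EGF/FGF by edgeR's quasi-likelihood test (Benjamini-Hochberg adjusted p under 0.05, here termed called), against 38.8% of all tested genes called lower. The remaining member, Orc3, was higher, as were 40.8% of all genes. A further threshold, a log2 fold change under -1.5, was passed by 42 members, against 6.95% of all genes. In BMP/FGF, 56 members were lower (38% of all genes), 43 of them past the threshold (6.08%), Orc3 was again higher (40.9% of all genes higher), and Orc4 was not called.

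The extent of the fall varied widely. The median member was at 24.9% of its EGF/FGF mean in BMP and at 17.8% in BMP/FGF, with a lowest value of 8.87% and 6.25% for Orc1 and a highest of 131% and 119% for Orc3. In BMP, 29 members were below 25% of their EGF/FGF mean, and in BMP/FGF 39 were. The median log2 fold change was -2.002 in BMP and -2.49 in BMP/FGF, while the highest adjusted p among called members was 0.000105 and 0.00741. All 4 BMP libraries lay below all 4 EGF/FGF libraries for 57 members, against 34.8% of all tested genes, and all 4 BMP/FGF libraries for 56, against 36.9%. Both comparisons use the same EGF/FGF libraries. The 16 members that stayed within the threshold in BMP were Orc2 to Orc6, Gins3, Gins4, Pold2, Pold3, Rfc1, Rfc2, Rpa1, Rpa2, Rpa3, E2f1 and Cdc25a, and in BMP/FGF the same list without E2f1.

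**Figure D1:**
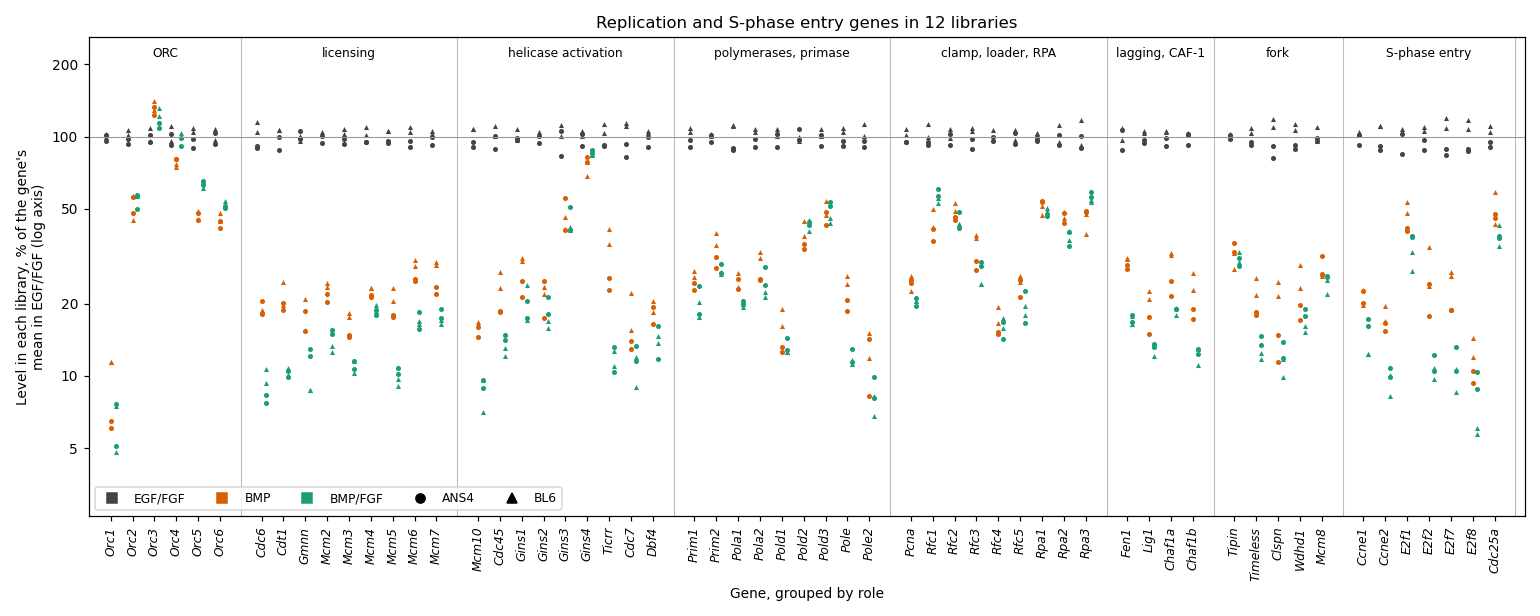
Level of each of the 58 genes in each of the 12 libraries as a percentage of the gene's mean in EGF/FGF (log axis), grouped by role; colours mark conditions, circles ANS4 and triangles BL6. BMP and BMP/FGF points lie below the EGF/FGF points for every gene except Orc3, whose BMP and BMP/FGF libraries lie above, and Orc4, whose BMP/FGF libraries overlap EGF/FGF.

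Within ORC, the complex that binds origins, only Orc1 fell past the threshold. Orc1, an ATPase subunit, was at 12.2 and 12.9 CPM in the ANS4 and 12.7 and 13.1 CPM in the BL6 EGF/FGF libraries, at 0.828, 0.775, 1.45 and 1.46 CPM in BMP, and at 0.970, 0.647, 0.615 and 0.950 CPM in BMP/FGF (per-library values are given throughout in this order, ANS4 replicates 1 and 2, then BL6 replicates 1 and 2). All 8 quiescent libraries were far below all 4 proliferating libraries, and BMP and BMP/FGF overlapped. This was the largest fall of the group, 11.2-fold in BMP (log2 fold change -3.49 ± 0.17, SE, adjusted p = 1.65e-12) and 15.9-fold in BMP/FGF (-3.99 ± 0.18, adjusted p = 6.50e-13).

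Of the other 5 ORC subunits, 4 fell by less in BMP and Orc3 rose. Orc3, a core subunit, was at 59.2, 55.5, 55.9 and 63.3 CPM in EGF/FGF, at 77.5, 71.7, 82.3 and 75.3 CPM in BMP and at 66.7, 63.5, 71.2 and 76.7 CPM in BMP/FGF. Every BMP and every BMP/FGF library was above every EGF/FGF library, a rise of 0.39 ± 0.06 on the log2 scale in BMP (adjusted p = 2.10e-05) and of 0.25 ± 0.06 in BMP/FGF (adjusted p = 0.00188). For Orc4 the values were 66.3, 59.5, 62.1 and 71.6 CPM in EGF/FGF, 52.3, 52.1, 50.0 and 48.6 CPM in BMP and 59.2, 63.8, 67.1 and 64.5 CPM in BMP/FGF. Its BMP libraries were the lowest, 1.28-fold below EGF/FGF (adjusted p = 0.000105), whereas its BMP/FGF libraries overlapped the proliferating ones (-0.03 ± 0.07, adjusted p = 0.715). Orc5 was at 60.3, 55.2, 64.3 and 67.2 CPM in EGF/FGF, 29.5, 27.8, 28.0 and 30.2 CPM in BMP and 40.1, 38.6, 40.4 and 37.7 CPM in BMP/FGF. The conditions did not overlap, with BMP/FGF between the others. Orc6, the smallest subunit, followed the same order, with 44.05, 39.6, 45.6 and 41.0 CPM, 18.8, 17.6, 18.9 and 20.4 CPM, and 21.9, 21.5, 23.0 and 21.95 CPM. Orc2 was at 51.2% of its EGF/FGF mean in BMP and 55.0% in BMP/FGF.

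**Figure D2:**
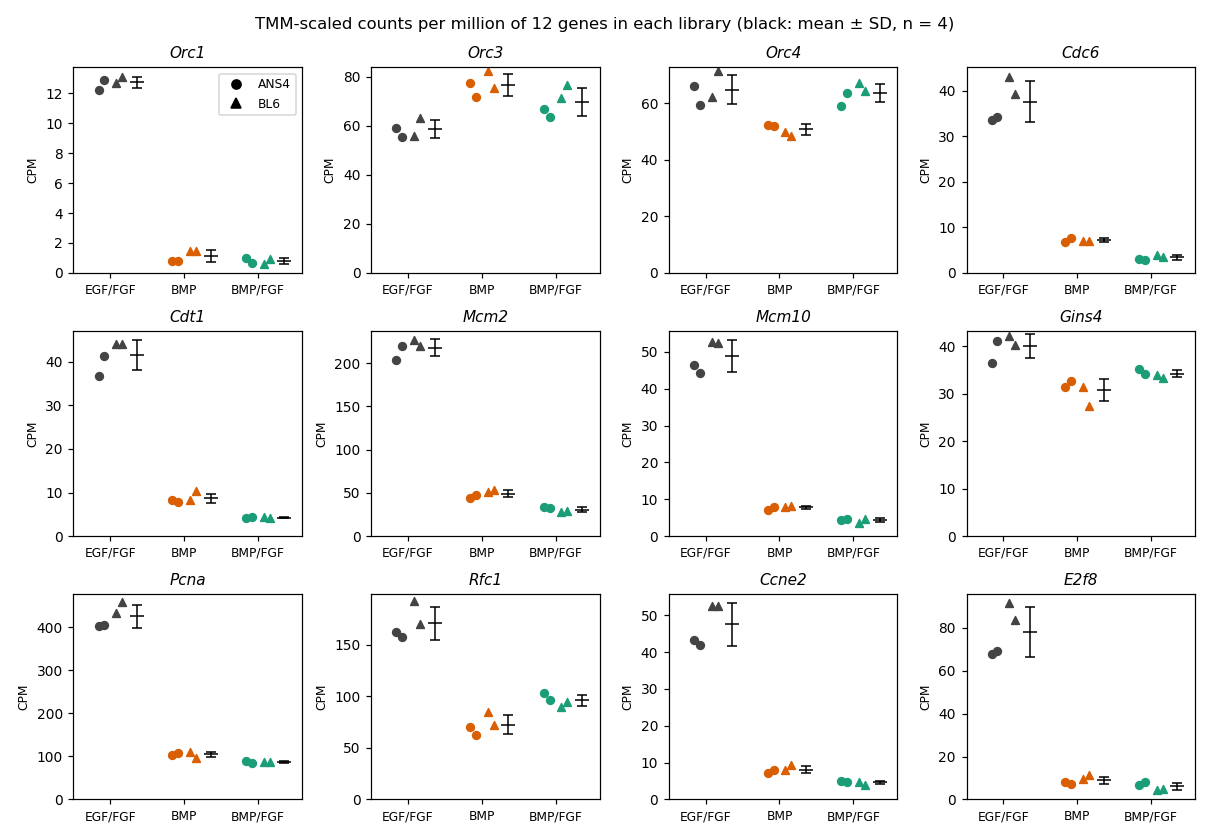
TMM-scaled CPM of 12 genes in each library, with circles for ANS4, triangles for BL6 and black bars for the mean ± SD of the 4 libraries of a condition; each vertical axis starts at 0. Orc1, Cdc6, Cdt1, Mcm2, Mcm10, Pcna, Ccne2 and E2f8 are highest in EGF/FGF, the BMP and BMP/FGF libraries of Orc3 lie above EGF/FGF, and the BMP/FGF libraries of Orc4, Gins4 and Rfc1 all lie above their BMP libraries.

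The 9 licensing genes were all lower in both conditions and all past the threshold, at 16.3% to 27.4% of their EGF/FGF mean in BMP and at 9.03% to 18.8% in BMP/FGF. Cdc6, the ATPase that helps ORC load the helicase, was at 33.6, 34.3, 43.1 and 39.4 CPM in EGF/FGF, at 6.79, 7.75, 6.998 and 7.09 CPM in BMP and at 3.13, 2.91, 4.02 and 3.52 CPM in BMP/FGF. The 3 conditions formed separate steps, 5.23-fold down in BMP (adjusted p = 8.93e-14) and 11.1-fold down in BMP/FGF (adjusted p = 3.40e-15). Cdt1, its partner in loading, was at 36.6, 41.2, 44.0 and 44.1 CPM, then 8.34, 7.86, 8.24 and 10.3 CPM, then 4.10, 4.37, 4.47 and 4.19 CPM. It fell 4.78-fold and 9.67-fold, again with no overlap between conditions. Gmnn, which encodes the CDT1 inhibitor geminin, was at 25.7, 27.8, 24.98 and 26.3 CPM, then 4.03, 4.87, 5.49 and 4.07 CPM, then 3.39, 3.18, 2.29 and 2.29 CPM. The inhibitor and its target fell in the same direction, Gmnn by 5.66-fold and 9.37-fold.

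The 6 helicase subunits Mcm2 to Mcm7 all fell past the threshold in both conditions, by unequal amounts. In BMP, their log2 fold changes lay between -2.62 (Mcm3) and -1.87 (Mcm6), and in BMP/FGF between -3.33 (Mcm5) and -2.41 (Mcm4), with SEs of 0.06 to 0.08. Mcm2 was at 204, 219.5, 227 and 220.1 CPM in EGF/FGF, at 44.2, 47.8, 51.0 and 53.2 CPM in BMP and at 34.0, 32.6, 27.5 and 29.1 CPM in BMP/FGF. It fell 4.44-fold and 7.06-fold, and within BMP both BL6 libraries were above both ANS4 libraries while within BMP/FGF both were below. Mcm5 was at 146, 148, 163 and 163 CPM, then 27.3, 27.9, 31.8 and 36.2 CPM, then 16.8, 15.8, 14.1 and 15.0 CPM, which gave the largest fall of the 6 in BMP/FGF, 10.0-fold.

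Of the 9 genes that activate the helicase and start synthesis, all were lower in both conditions and 7 were past the threshold in each. Mcm10, which helps the helicase to unwind, was at 46.4, 44.2, 52.7 and 52.4 CPM in EGF/FGF, at 7.12, 7.80, 7.98 and 8.24 CPM in BMP and at 4.36, 4.69, 3.46 and 4.69 CPM in BMP/FGF. These are falls of 6.27-fold and 11.3-fold with 3 separate ranges. Cdc45, which joins the helicase at activation, was at 47.4, 41.6, 47.5 and 51.9 CPM, then 8.78, 8.75, 10.9 and 12.8 CPM, then 6.68, 7.01, 5.70 and 6.14 CPM. Ticrr, needed to bring CDC45 to origins, was at 31.7, 31.3, 35.7 and 38.9 CPM, then 8.83, 7.86, 12.2 and 14.1 CPM, then 4.53, 3.56, 3.80 and 4.36 CPM. After Gins4 and Gins3 it kept the largest share of its EGF/FGF mean among these 9 genes in BMP (31.3%), but in BMP/FGF only Mcm10 and Cdc7 kept less (11.8% for Ticrr). The kinase genes Cdc7 and Dbf4 were at 16.1% and 18.7% of their EGF/FGF means in BMP and at 11.5% and 14.1% in BMP/FGF.

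GINS, the 4-subunit partner of CDC45, split. Gins1 and Gins2 changed by -1.90 ± 0.11 and -2.19 ± 0.11 in BMP, Gins3 by -1.13 ± 0.13 and Gins4 by only -0.38 ± 0.07 (log2 fold change ± SE). Gins4 was at 36.5, 41.1, 42.2 and 40.3 CPM in EGF/FGF, at 31.3, 32.8, 31.5 and 27.4 CPM in BMP and at 35.1, 34.2, 34.0 and 33.4 CPM in BMP/FGF. Its ranges still did not overlap between conditions, with BMP lowest, and the fall was 1.30-fold in BMP (adjusted p = 9.53e-05) and 1.17-fold in BMP/FGF (adjusted p = 0.00741; 0.0745 in ANS4 alone).

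All 9 polymerase and primase genes were lower, 7 of them past the threshold in each condition. Pole2, an accessory subunit of polymerase epsilon, was at 34.6, 32.8, 36.1 and 40.8 CPM in EGF/FGF, at 2.98, 5.15, 4.30 and 5.47 CPM in BMP and at 2.91, 3.56, 2.46 and 2.96 CPM in BMP/FGF. Its falls of 8.04-fold and 12.1-fold came after those of Orc1 and E2f8 only in both comparisons. The catalytic subunit gene Pole changed by -2.16 ± 0.08 and -3.07 ± 0.09. In polymerase delta, the catalytic subunit gene Pold1 changed by -2.72 ± 0.10 and -2.93 ± 0.10, whereas the accessory subunit genes Pold2 and Pold3 changed by -1.40 ± 0.08 and -1.06 ± 0.08 in BMP and by -1.22 ± 0.07 and -1.04 ± 0.08 in BMP/FGF. The 4 genes of polymerase alpha-primase, which lays down primers, stayed close to each other, from -2.01 (Pola1) to -1.57 (Prim2) in BMP and from -2.32 (Prim1) to -1.86 (Prim2) in BMP/FGF.

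The clamp, clamp loader and single-strand binding genes were all lower, but only 4 of the 9 passed the threshold in either condition. Pcna, the sliding clamp that tethers the polymerases, was at 404, 405, 433 and 459 CPM in EGF/FGF, at 104, 107, 111 and 96.3 CPM in BMP and at 90.1, 83.7, 87.7 and 87.3 CPM in BMP/FGF. It fell 4.07-fold and 4.87-fold, and the BMP/FGF libraries lay just below the BMP libraries. Rfc1, the large subunit of the clamp loader, was at 162, 158, 193 and 171 CPM, then 70.5, 62.4, 85.0 and 71.9 CPM, then 103, 96.6, 89.9 and 94.7 CPM. BMP/FGF lay between the other conditions without overlap. The loader subunits differed, from -2.59 ± 0.09 (Rfc4) to -1.05 ± 0.07 (Rfc2) in BMP and from -2.63 ± 0.09 (Rfc4) to -0.82 ± 0.08 (Rfc1) in BMP/FGF. The 3 RPA genes, whose products coat single-stranded DNA also during repair, changed by -1.12 to -0.96 in BMP and by -1.39 to -0.85 in BMP/FGF.

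The 4 lagging strand and chromatin assembly genes and the 5 fork genes were lower and past the threshold in both conditions. Fen1, the flap nuclease, and Lig1, the ligase that joins Okazaki fragments, were at 29.7% and 19.0% of their EGF/FGF means in BMP and at 17.3% and 13.1% in BMP/FGF. Chaf1a and Chaf1b, subunits of the CAF-1 complex that places histones on new DNA, were at 27.8% and 21.5%, then at 18.8% and 12.3%. Among the fork genes, Clspn, a checkpoint mediator, fell most (-2.47 ± 0.14 and -3.05 ± 0.15) and Tipin least (-1.63 ± 0.08 and -1.70 ± 0.08), while Timeless, the partner of Tipin, changed by -2.25 ± 0.10 and -2.93 ± 0.10. Wdhd1, which links helicase and polymerase alpha, was at 22.4% and 17.1% of its EGF/FGF mean, and Mcm8, a helicase of recombination repair, at 27.7% and 24.8%.

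Regulators of S-phase entry fell by unequal amounts. E2f8, a repressor of the E2F family, was at 67.7, 69.1, 91.4 and 83.8 CPM in EGF/FGF, at 8.17, 7.31, 9.33 and 11.2 CPM in BMP and at 6.90, 8.14, 4.47 and 4.75 CPM in BMP/FGF. It fell 8.64-fold and 12.7-fold, with BMP and BMP/FGF overlapping. E2f7, the other atypical repressor, was at 26.7, 28.1, 37.9 and 34.5 CPM, then 6.02, 5.98, 8.66 and 8.34 CPM, then 3.34, 4.20, 2.74 and 3.41 CPM, and its conditions did not overlap. E2f2, an activator, was at 15.0, 13.6, 17.0 and 16.4 CPM, then 2.76, 3.76, 3.68 and 5.37 CPM, then 1.62, 1.89, 1.68 and 1.51 CPM. The activator E2f1 changed much less, from 24.1, 29.2, 29.7 and 30.6 CPM to 11.8, 11.5, 13.6 and 15.1 CPM and 10.8, 10.9, 7.77 and 9.33 CPM, that is 2.18-fold (adjusted p = 4.74e-08) and 2.92-fold (adjusted p = 1.04e-09).

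Both cyclin E genes, whose products drive CDK2 into S phase, were reduced beyond the threshold. Ccne1 was at 30.85, 28.1, 31.0 and 31.7 CPM in EGF/FGF, at 6.13, 6.86, 6.01 and 6.93 CPM in BMP and at 4.90, 5.28, 3.74 and 3.74 CPM in BMP/FGF. Ccne2 was at 43.2, 41.9, 52.5 and 52.5 CPM, then 7.29, 7.92, 8.04 and 9.28 CPM, then 5.12, 4.69, 4.81 and 3.91 CPM. The folds were 4.69 and 6.88 for Ccne1 and 5.83 and 10.2 for Ccne2, with 3 separate ranges for each gene. Cdc25a, the phosphatase that activates cyclin-CDK complexes, was at 43.8, 45.7, 53.2 and 50.3 CPM, then 22.03, 22.9, 28.3 and 20.8 CPM, then 18.5, 18.2, 16.9 and 20.6 CPM. It retained 48.7% and 38.4% of its EGF/FGF mean, the most among these 7 regulators.

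Subunits of the same complex did not all change together. The spread of log2 fold changes within a complex in BMP was 3.88 for ORC, 1.81 for GINS, 1.66 for polymerase delta and 1.54 for RFC, against 0.75 for MCM2-7, 0.44 for polymerase alpha-primase and 0.16 for RPA. These spreads are descriptions, and no test was made between subunits. Levels can be compared between genes only per length, and per kilobase of the longest coding transcript (GENCODE vM21, GRCm38) the EGF/FGF means of Mcm2 to Mcm7 lay between 45.9 (Mcm5) and 94.5 (Mcm7) CPM per kb, a 2.06-fold range that widened to 2.71-fold in BMP and 3.63-fold in BMP/FGF. Orc1 was at 4.22 ± 0.124 CPM per kb (SD, n = 4) in EGF/FGF, where the other ORC subunits were at 15.95 to 29.4, and at 0.3745 ± 0.126 in BMP, where they were at 12.5 to 33.35. Pcna was the most abundant member per length in EGF/FGF, at 280.1 CPM per kb. Which transcript each gene uses was not determined, and with the shortest coding transcript instead Orc4 would be at 56.25, Orc2 at 62.1 and Mcm7 at 207 CPM per kb in EGF/FGF.

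**Figure D3:**
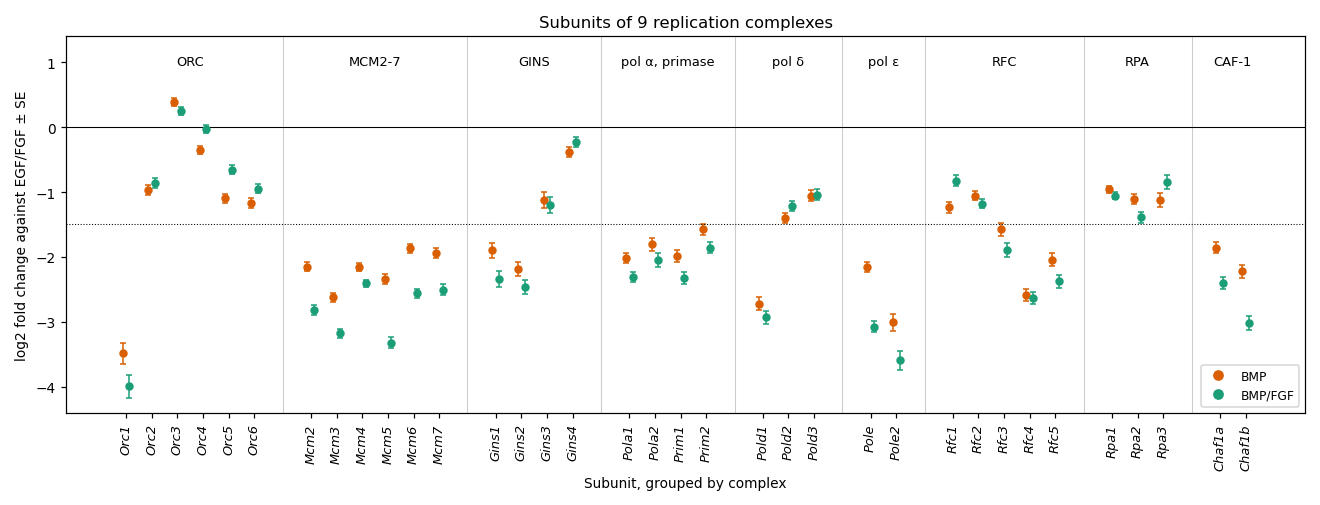
Log2 fold change against EGF/FGF (± SE, n = 4 libraries per condition) for the subunits of 9 replication complexes in BMP and BMP/FGF; the dotted line marks -1.5. Orc1, Gins1, Gins2, Pold1 and Rfc4 lie well below other subunits of their complexes, while the 6 MCM2-7 subunits lie between -1.87 and -3.33.

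The fall was also described by whether the promoter held an E2F word. The 20 members with a word had a median log2 fold change of -2.07 in BMP (range -3.49 to 0.39) and -2.93 in BMP/FGF, and the 28 without one had -1.92 (range -3.11 to -0.35) and -2.39. Orc1 and Orc3, at the ends of the range, each carried 1 word, not the same one, in the window printed above, Mcm6 carried 3 and Rfc3 carried 2. The median GC content of the members' windows was 62.3%, against 59.3% for genes in the count table. These values are descriptions, and chance was not assessed.

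BMP/FGF against BMP, the comparison between the quiescence media, moved the genes less and in both directions. Of the 58 members, 38 were lower in BMP/FGF (21.3% of all tested genes were), 4 were higher (20.1% of all genes), and 16 were not called. The median member changed by -0.39 on the log2 scale, where the median of all tested genes was -0.0035, and no member changed by more than 1.5. All 4 BMP/FGF libraries lay below all 4 BMP libraries for 28 members (18% of all genes) and above them for 6 (17.6%). Over both lines, all 9 licensing genes, all 4 lagging strand and chromatin assembly genes and all 7 S-phase entry regulators were called lower. In ANS4 alone, Gmnn (-0.44, adjusted p = 0.0613), Ccne1 (-0.35, 0.0723), E2f1 (-0.10, 0.548) and E2f8 (-0.04, 0.827) were not called. The largest falls were in Ticrr (2.61-fold, -1.39 ± 0.13, adjusted p = 3.36e-07), E2f2 (2.31-fold, -1.21 ± 0.18, adjusted p = 4.11e-05) and Cdc6 (2.11-fold, -1.08 ± 0.12, adjusted p = 1.26e-06), followed by E2f7 (-1.06), Cdt1 (-1.02) and Mcm5 (-0.99).

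Among the ORC genes, none was called lower in BMP/FGF than in BMP over both lines and 3 were called higher. Orc5 was 0.44 ± 0.07 higher (log2, adjusted p = 6.68e-05), Rfc1 0.41 ± 0.08 (adjusted p = 0.000612), Orc4 0.33 ± 0.07 (adjusted p = 0.000892) and Orc6 0.22 ± 0.07 (adjusted p = 0.0219). In ANS4 alone all 4 were called, together with Pold2 (0.32), and in BL6 alone only Orc4 (0.42) and Orc5 (0.43) were. Orc1 and Orc3 were not called over both lines (adjusted p = 0.117 and 0.0804), but Orc1 was called lower in BL6 alone (-0.89, adjusted p = 0.0348) and Orc3 in ANS4 alone (-0.20, adjusted p = 0.0333), and Orc3 also with library size only (adjusted p = 0.0235). Neuron markers also moved between these media, from 1128 to 1745 CPM in BMP to 869 to 934 CPM in BMP/FGF. The astrocyte sum went from 6803 to 8628 CPM to 10054 to 10272 CPM. Of the 9 astrocyte markers, 5 were higher in BMP/FGF (20.1% of all tested genes), 1 was lower (21.3%) and 3 were not called. The part of both marker lists in the changes of replication genes was not tested.

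Single libraries decided some of these calls. Without BL6 BMP/FGF replicate 1, the calls of Orc6, Gins1, Cdc7, Rfc3, Rfc5, Wdhd1 and E2f8 were lost (adjusted p = 0.052 to 0.0981), and without BL6 BMP/FGF replicate 2 those of Cdc7, Prim1, Prim2, Rfc3, Wdhd1 and E2f8 (0.05 to 0.107). Leaving out BL6 BMP replicate 1 ended the calls of Cdc7, Prim2, Rfc3 and Wdhd1 (0.0617 to 0.12), and BL6 BMP replicate 2 those of Rfc3, Rfc5 and E2f8 (0.0501 to 0.0713). In ANS4, leaving out BMP replicate 2 ended the calls of Orc6 and Rfc5 (0.0535 to 0.0656), BMP/FGF replicate 1 that of Orc6 (0.0589) and BMP/FGF replicate 2 that of Rfc5 (0.0727). In all, 9 of the 42 called members lost their call without at least 1 library and 7 of the 16 others gained one. These were Gins2 without ANS4 BMP replicate 2 (0.0126), Gins2 and Rfc2 without ANS4 BMP/FGF replicate 1 (0.0221 and 0.0404), Pola2 without ANS4 BMP/FGF replicate 2 (0.00992), Rpa3 without EGF/FGF replicate 2 of ANS4 (0.0465) or BL6 (0.0285), Orc3, Pold2 and Rpa1 without BL6 BMP replicate 2 (0.00696 to 0.0475), and Orc3 without BL6 BMP/FGF replicate 2 (0.0487).

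**Figure D4:**
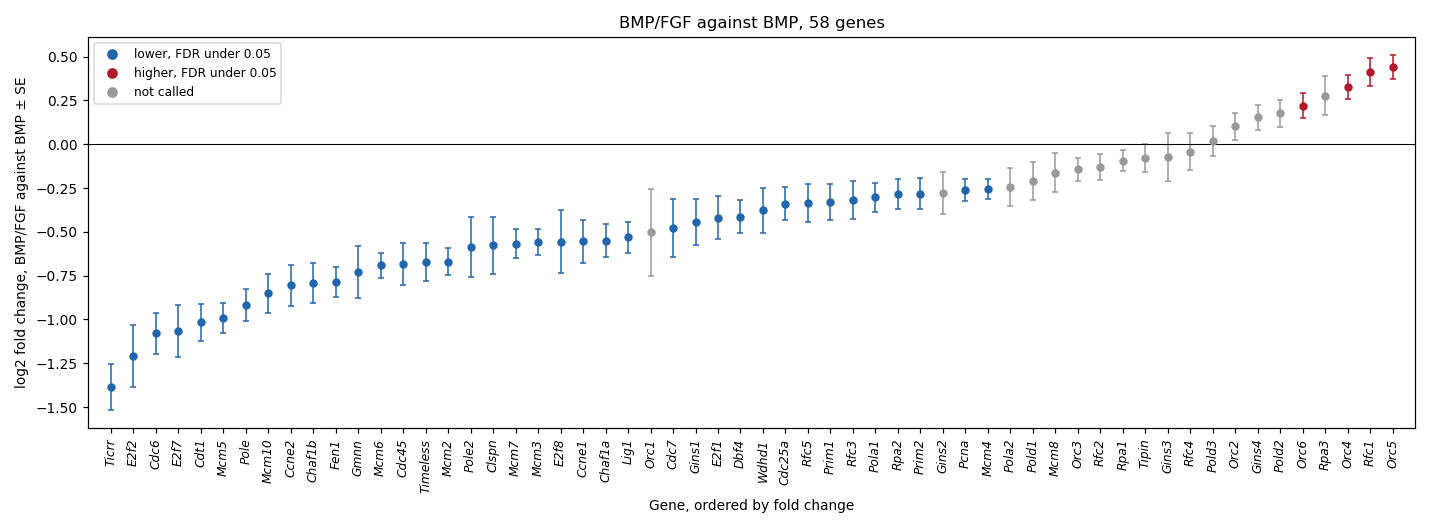
Log2 fold change of BMP/FGF against BMP for the 58 genes (± SE, 4 libraries per condition), ordered by size; blue is called lower, red called higher and grey not called. The 38 genes called lower reach -1.39 (Ticrr) and the 4 called higher are Orc6, Orc4, Rfc1 and Orc5.

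The order of the lines for these genes was not the same in every medium. In EGF/FGF, both BL6 libraries were above both ANS4 libraries for 37 members and below for none (26.4% and 27.3% of all genes), and in BMP for 34 and 4 (27.7% and 27.5%). In BMP/FGF, the lines overlapped for 32 members, and BL6 was above for 5 and below for 21 (26.8% and 24.3%). The summed level of the 58 genes was 4569 and 4602 CPM in ANS4 and 5068 and 5075 CPM in BL6 in EGF/FGF, 1401, 1379, 1579 and 1505 CPM in BMP and 1290.4, 1254, 1241 and 1248 CPM in BMP/FGF. In ANS4 alone, 26 members were lower in BMP/FGF than in BMP (18.5% of all tested genes) and 5 higher (17.3%), with a median of -0.23. In BL6 alone 41 were lower (21% of all tested genes) and 2 higher (19.5%), with a median of -0.62.

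A line by condition term tested the difference itself. For BMP/FGF against BMP it was called for 15 members, all with the more negative change in BL6 (6.86% of all tested genes were called in that direction and 6.67% in the other). They were Mcm2, Mcm5, Mcm7, Cdc45, Pola2, Pold1, Rfc3, Lig1, Chaf1a, Timeless, Clspn, Wdhd1, E2f1, E2f7 and E2f8, and the difference (BL6 minus ANS4) ranged from -1.11 ± 0.20 for E2f8 (adjusted p = 0.00139) to -0.41 ± 0.11 for Mcm2 (adjusted p = 0.0167). Clspn was at 10.7 and 8.25 CPM in ANS4 and 17.8 and 15.4 CPM in BL6 in BMP, and at 9.97, 8.57, 7.10 and 8.43 CPM in BMP/FGF, so BL6 lay above ANS4 in the first medium and below in the second (-1.07 ± 0.20, adjusted p = 0.00233). Rfc3 showed the same crossing, from 17.5, 19.2, 24.5 and 23.8 CPM to 18.2, 18.9, 15.3 and 15.3 CPM (-0.68 ± 0.13, adjusted p = 0.00279). All 15 were called lower in BL6 alone, and 7 of them were not called in ANS4 alone, where Pola2 (0.05), Pold1 (0.08) and Rfc3 (0.02) had estimates above 0. The number called was 8 without ANS4 BMP replicate 1 or replicate 2, 7 and 8 without ANS4 BMP/FGF replicate 1 and 2, and 6 and 8 without BL6 BMP/FGF replicate 1 and 2. The neuron markers were also higher in BMP in BL6 (1745 and 1573 CPM) than in ANS4 (1213 and 1128 CPM), as was Mki67 (129.9 and 118 against 63.2 and 54.6 CPM), and their part in the line difference was not tested.

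The same term was fitted for the comparisons with EGF/FGF. For BMP against EGF/FGF no member was called by edgeR (3.63% of all genes with BL6 lower and 5.39% with BL6 higher), nor by DESeq2 or limma, although 13 members had an unadjusted p under 0.05 and 7 were called without BL6 BMP replicate 1. For BMP/FGF against EGF/FGF, E2f8 (-1.06 ± 0.17, adjusted p = 0.00185), Clspn (-0.65, adjusted p = 0.0442) and Rfc3 (-0.47, adjusted p = 0.0325) fell more in BL6 (1.83% of all genes in that direction and 3.16% in the other), and 18 members had an unadjusted p under 0.05. This count of 3 was 14 when only the libraries of these 2 conditions were fitted, 1 without either BMP/FGF replicate of either line, without ANS4 EGF/FGF replicate 2 or without either EGF/FGF replicate of BL6, and it was 9 and 10 without BL6 BMP replicate 1 and 2.

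**Figure D5:**
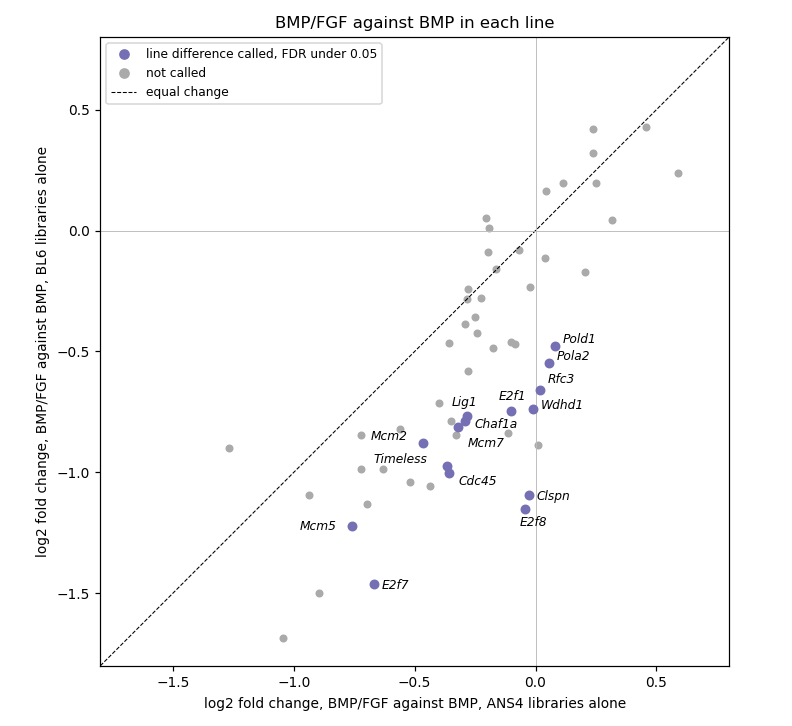
Log2 fold change of BMP/FGF against BMP in the ANS4 libraries alone (horizontal) and in the BL6 libraries alone (vertical) for the 58 genes; purple points are the 15 genes with a called line difference and the dashed line marks equal change. The purple points lie below the dashed line, with Clspn, E2f8 and Wdhd1 near 0 in ANS4.

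Other genes of the pathway, from a list of 40 further replication factors of which 39 were tested, fell less evenly. In BMP, 35 were lower (38.8% of all tested genes were), 1 was higher (40.8%) and 3 were not called, with a median of -1.45. In BMP/FGF 32 were lower (38% of all tested genes), 1 was higher (40.9%) and 6 were not called, with a median of -1.69. Dna2, a nuclease and helicase of Okazaki fragment processing, and Uhrf1, which maintains DNA methylation behind the fork, fell most in BMP (-2.65 ± 0.10 and -2.59 ± 0.07), and Ddb1, the adaptor of a ubiquitin ligase that targets CDT1, was higher (0.40 ± 0.06, adjusted p = 1.12e-05). Of 14 E2F, DP and DREAM complex partners, 11 were lower (38.8% of all tested genes), 2 were higher (40.8%) and 1 was not called in BMP. Their median was -0.70. Mybl2 and Foxm1, transcription factors of the late cell cycle, fell most (-2.21 ± 0.12 and -2.07 ± 0.11). The partners that rose were Lin52, a subunit of the MuvB core of DREAM (1.32 ± 0.07, adjusted p = 6.82e-12), and Dyrk1a, a kinase known to phosphorylate LIN52 (0.55 ± 0.06, adjusted p = 2.86e-07). Lin52 was at 26.8, 29.5, 26.7 and 24.1 CPM in EGF/FGF, at 70.2, 67.9, 61.6 and 68.0 CPM in BMP and at 56.4, 56.5, 61.5 and 55.5 CPM in BMP/FGF. For Lin52, both quiescent conditions thus lay above the proliferating one. Dyrk1a was at 168 to 184 CPM in BMP, but its 122 to 150 CPM in BMP/FGF overlapped 118 to 124 CPM in EGF/FGF. The other LIN genes of the list did not rise in BMP. Lin9 was at 32.3 to 38.4 CPM in EGF/FGF and 14.5 to 17.4 CPM in BMP, and Lin54 at 57.7 to 62.0 and 31.5 to 35.8 CPM. Lin37 was at 13.7 to 15.3 CPM and 8.14 to 13.97 CPM.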

How the data were processed

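RNA was sequenced as 12 low-input libraries on a BGISEQ-500RS instrument. The authors trimmed the reads with Trim Galore 0.5.0, quantified transcripts with kallisto 0.44.0 against the mm10 transcriptome, summarised them to genes and used DESeq2 1.27.32. The deposited table holds estimated counts per gene, already whole numbers, and a second deposited table holds regularised log2 values, which served only for an alternative. The annotation release is not given in the sources used here, and estimated counts divide reads shared between similar transcripts.

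Genes with low counts were removed with filterByExpr, leaving 13312 of 17365, and libraries were scaled by TMM factors of 0.972 to 1.03. The 12 libraries were fitted together with edgeR 4.0.16 (R 4.3.3; quasi-likelihood test) with condition and line as terms, and line differences with their interaction. The Benjamini-Hochberg adjustment of p-values covered the whole set of tested genes. Fold changes are log2 values with SE. A gene was called at an adjusted p under 0.05, and past the threshold also beyond 1.5 on the log2 scale. The model was tested on simulated data beforehand. Totals of 18069052 to 19451818 counts limit the precision of the lowest genes. The labels call the 2 libraries of a line and condition biological replicas without naming separate cultures or animals, so p-values measure the spread between these samples, which may be partly technical. No 2 replicates agreed within sampling noise (chi-square per degree of freedom 12.5 in BL6 BMP and 2.14 to 4.77 in the other groups).

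Values in every library are given for 15 genes chosen by role, for the 3 largest and 3 smallest falls in each comparison, and for members called opposite to the majority. Clspn, Rfc3 and Lin52 were given in addition. Genes outside the 58 were named for the 2 largest falls and rises of their list. Lin9, Lin37, Lin54 and single cell type markers were named in addition. The members and lists were chosen with earlier results of these data known. Alternatives were DESeq2 1.42.0, its size factors, library size only, no filter, limma 3.58.1 on the log2 values, no line term, each line alone, only the 2 conditions compared, a replicate block and leaving out each library. Promoters were searched in RefSeq windows, and Gins4, Prim2, Mcm4, Tipin, Pole, Gins1, Gins2, Ccne2, Gmnn and Rfc2 had no entry. The 4 promoters printed were chosen after the values were seen.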

Additional observations from a re-analysis of the deposited data

Results flagged for a closer look

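In 7 of 174 sets of 4 libraries (58 genes in 3 conditions), 1 library lay far from the other 3 by Dixon's criterion. Chance alone meets it in about 1 in 20 sets of 4 like samples. Each set here held libraries of 2 lines, so the number found cannot be set against that rate. In BMP/FGF, Orc2 was at 49.2 CPM in ANS4 replicate 2 against 55.7 to 56.2 CPM in the others, Gins3 at 7.01 CPM in ANS4 replicate 1 against 5.59 to 5.76 CPM, Prim2 at 16.2 CPM in ANS4 replicate 1 against 14.7 to 14.9 CPM, Pold1 at 11.05 CPM in ANS4 replicate 2 against 9.61 to 9.81 CPM, and Chaf1a at 14.2 CPM in BL6 replicate 2 against 15.0 to 15.1 CPM. In EGF/FGF, Chaf1b was at 50.5 CPM in ANS4 replicate 2 against 56.0 to 56.5 CPM, and in BMP, Mcm8 was at 7.07 CPM in ANS4 replicate 1 against 5.81 to 5.94 CPM.

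The change differed between the lines for 18 gene and comparison pairs by edgeR's interaction test, all with the more negative change in BL6. Of all tested genes, 1.83% were called in that direction and 3.16% in the other from EGF/FGF to BMP/FGF. For BMP to BMP/FGF the shares were 6.86% and 6.67%. Rfc3, Clspn and E2f8 were called in both comparisons, which share the BMP/FGF libraries. From EGF/FGF to BMP/FGF the difference (BL6 minus ANS4, log2) was -0.47 for Rfc3, -0.65 for Clspn and -1.06 for E2f8. From BMP to BMP/FGF it was -0.41 for Mcm2, -0.46 for Mcm5, -0.49 for Mcm7, -0.65 for Cdc45, -0.60 for Pola2, -0.56 for Pold1, -0.68 for Rfc3, -0.49 for Lig1, -0.50 for Chaf1a, -0.61 for Timeless, -1.07 for Clspn, -0.73 for Wdhd1, -0.65 for E2f1, -0.80 for E2f7 and -1.11 for E2f8. Adjusted p-values ranged from 0.00139 to 0.0442.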

How the results depend on the processing

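Over 22 alternatives, all 58 members kept their direction and their call (adjusted p under 0.05 or not) in BMP against EGF/FGF. In BMP/FGF against EGF/FGF 56 of 58 did, and in BMP/FGF against BMP 29 of 58 did, where the number lower ranged from 26 to 41. Past -1.5 on the log2 scale were 40 to 43 members in BMP, where Pold2, Prim2 and Rfc3 changed side, and 42 to 43 in BMP/FGF, where E2f1 did. The cause of the changes below was not tested. In BMP/FGF against BMP, the log2 fold change of Pold3 (0.02) turned to -0.0238 with library size only and to -0.1703 in BL6 alone, and ranged from -0.0431 to 0.0829 on leaving out single libraries. In ANS4 alone, it turned to 0.0119 for Orc1, 0.0546 for Pola2, 0.0795 for Pold1, 0.0186 for Rfc3 and 0.0394 for Rfc4, and in BL6 alone to 0.0095 for Rpa1 and 0.0532 for Tipin. On leaving out single libraries it ranged from -0.1702 to 0.0359 for Gins3 and from -0.0892 to 0.0254 for Rfc4, and for Orc4 in BMP/FGF against EGF/FGF from -0.0668 to 0.0207. The number of members higher in BMP/FGF than in BMP was 2 in BL6 alone. The 3 line differences in BMP/FGF against EGF/FGF became 5 with library size only, 1 with no filter, 14 with only the libraries of the 2 conditions and 1 to 10 on leaving out single libraries. The 15 in BMP/FGF against BMP became 22 with library size only and 6 to 20 on leaving out single libraries, and the 0 in BMP against EGF/FGF became 0 to 7 on leaving out single libraries. With the replicate block, 57, 56 and 38 members were lower in the 3 comparisons, and 0, 2 and 17 differed between lines. Deviations of equally numbered libraries correlated by only -0.0711 to 0.0529, so the numbers were not taken as pairs. Members below about 1 CPM, such as Orc1 in quiescence, rest on as few as 11 counts.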
